A study of Rattus norvegicus with 6 samples.

Results

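The proteasome is the protease complex that degrades ubiquitin-tagged proteins, and 46 genes whose symbols mark them as its parts or partners were followed in rat retinal ganglion cells. These neurons send their axons through the optic nerve to the brain. The genes were chosen by symbol, as every gene with a probe set (a group of array probes for 1 transcript) whose single annotated symbol starts with Psma, Psmb, Psmc, Psmd, Psme, Psmf or Psmg. This gave 60 of 31042 probe sets, for 46 of 14217 genes with a single symbol, and each gene was represented by the probe set with the highest mean over the 6 arrays. Of these genes, 44 encode subunits, assembly factors, activators or an inhibitor of the proteasome, and Psmc3ip and Psme3ip1 are not counted among them. Psmb6 and Psme3 were read only by probe sets that carry several symbols and are not described.

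The cells came from both eyes of 3 adult male Brown Norway rats. Pressure inside 1 eye of each rat had been raised for 10 days by an injection of hypertonic saline into an episcleral vein, and the fellow eye served as the control. Fluorogold placed in the superior colliculus had labelled the ganglion cells of all eyes through their axons, and 2000 labelled cells per eye were laser-captured. The groups are OS, the left eye (n = 3 arrays), and OD, the right eye (n = 3 arrays), since the labels do not say which eye had raised pressure, and all differences are OS minus OD within a rat and have no known direction with respect to pressure.

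The proteasome consists of a barrel-shaped core particle, 20S, and a regulatory particle, 19S, that caps its ends. In the core, outer rings of alpha subunits (Psma genes) gate the entry, and inner rings of beta subunits (Psmb genes) hold the proteolytic sites. In the regulatory particle, a ring of ATPases (Psmc genes) unfolds substrates, and non-ATPase subunits (most Psmd genes) bind and remove ubiquitin. In mouse and human cells the transcription factor NFE2L1 raises proteasome genes together when the protease is inhibited, through antioxidant response elements in their promoters.

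Matches to this element in the promoters are shown first, since it is a known site of shared control. Promoter sequences, each from 250 bases before to 50 bases after the annotated start, were matched by symbol for 42 of the 46 genes (RefSeq, build GRCr8). The core of the element, TGACNNNGC, was searched on both strands and was found in 7 of them (16.7%), against 12.2% of 27457 promoters of the same length, 1 per symbol. It lay in 3 of 12 core genes and in 2 of 14 regulatory particle genes. The matches follow with 15 bases on each side, read along the gene's own strand, with the motif in capitals:
Psma3, chr6:95219722-95219760, + strand: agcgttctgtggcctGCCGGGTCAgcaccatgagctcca
Psmb2, chr5:144254975-144255013, + strand: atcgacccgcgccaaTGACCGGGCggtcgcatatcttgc
Psmb5, chr15:32047416-32047454, - strand: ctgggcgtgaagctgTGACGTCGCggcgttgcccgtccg
Psmd1, chr9:94157791-94157829, + strand: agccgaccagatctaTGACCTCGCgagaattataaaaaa
Psmd1, chr9:94157978-94158016, + strand: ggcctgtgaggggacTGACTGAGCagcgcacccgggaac
Psmd3, chr10:84139936-84139974, + strand: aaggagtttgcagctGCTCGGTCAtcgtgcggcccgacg
Psmd9, chr12:39018318-39018356, - strand: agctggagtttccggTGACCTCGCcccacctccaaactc
Psmd9, chr12:39018365-39018403, - strand: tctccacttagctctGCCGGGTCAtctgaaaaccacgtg
Psme4, chr14:108706573-108706611, + strand: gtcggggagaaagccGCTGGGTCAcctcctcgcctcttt

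In Psma3, Psmd3, Psme4 and 1 of the matches of Psmd9 the motif reads as its reverse complement. The match of Psmb2 overlaps by 1 base with a CCAAT box (CCAAT, both strands), which 22 of the 42 promoters hold (52.4%), against 37.7% of all promoters. Among the genes with TGACNNNGC, OS minus OD ran from -1.72 to 1.50 on the log2 scale with a median of 0.45, and in the genes without it from -2.63 to 1.59 with a median of -0.31. The range of the genes with the motif lay within that of the genes without it. Nfe2l1 itself, named here for its link to this motif, had 1177, 770.1 and 783 in OS, against 1589, 1252 and 1217 in OD, a log2 difference of -0.58 ± 0.14 that did not pass the test (limma adjusted p = 0.854).

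The promoters of Psma6 and Psmd11, the members with the smallest p-values below, are shown whole, with the 50 bases from the annotated start in capitals. Neither holds TGACNNNGC or CCAAT in this window.
Psma6, chr6:78514097-78514396, + strand: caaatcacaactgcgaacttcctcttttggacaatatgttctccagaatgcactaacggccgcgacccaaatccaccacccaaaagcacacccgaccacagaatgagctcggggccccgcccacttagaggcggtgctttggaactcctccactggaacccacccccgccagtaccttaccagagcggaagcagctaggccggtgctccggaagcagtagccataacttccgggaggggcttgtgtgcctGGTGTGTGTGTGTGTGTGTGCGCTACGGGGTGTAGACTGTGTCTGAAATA
Psmd11, chr10:65932093-65932392, + strand: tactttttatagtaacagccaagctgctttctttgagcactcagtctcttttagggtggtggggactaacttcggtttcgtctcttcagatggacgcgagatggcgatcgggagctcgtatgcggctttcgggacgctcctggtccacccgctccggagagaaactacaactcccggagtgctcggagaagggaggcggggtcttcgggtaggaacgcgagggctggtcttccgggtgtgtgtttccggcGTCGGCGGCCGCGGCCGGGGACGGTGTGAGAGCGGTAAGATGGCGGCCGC

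The values are intensities of 1 array per eye, scaled by the authors, with a median of 313 to 369 per array. Background was judged from 27 probe sets for bacterial RNAs, taken here as not added to the samples, and their 95th percentile, the control limit of an array, ran from 261 to 591. Of the 46 genes, 22, 13 and 27 exceeded the limit on the OS arrays of rats 1 to 3, against 37, 14 and 36 on the OD arrays. Of all probe sets, 47.6, 34.9 and 45.5% exceeded it on the OS arrays, against 58.1, 34.8 and 52.1% on the OD arrays, so this share also differed between the eyes of rats 1 and 3, where the limit was lower in OD. Only 5 of the 46 exceeded it on all 6 arrays, a share of 10.9% against 15.7% of all genes, and these were Psmc2, Psmc4, Psmd7, Psmd11 and Psme2. 11 genes exceeded it on no OS array and 3 on no OD array, so the sizes of many differences below are uncertain. The same counts per eye were not made over all genes, and the limits differed between the eyes, so 11 against 3 is not read as a difference of these genes. Of the 46, 31 passed the brightness filter and were tested.

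Markers of ganglion cells were present: 14 of 15 listed genes had a probe set with 1 symbol, and 8 of them, Thy1, Rbpms and Nefm included, exceeded the limit on all 6 arrays. So did 4 of 8 amacrine cell markers, 3 of 9 Mueller glia and astrocyte markers, 2 of 8 photoreceptor markers and 0 of 10 microglia and 0 of 6 pigment epithelium markers. No marker was listed at 0.

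Most genes with a proteasome symbol had a lower mean in OS than in OD, but none passed the test. The mean was lower in OS for 28 genes and higher for 18 (60.9% lower, against 50.7% of all genes). The median log2 difference was -0.34, against -0.016 over all genes, and in rats 1 to 3 the median was -0.70, -0.34 and -0.33. OS was below OD in 3 of 3 rats for 11 genes (23.9%, against 13.8% of all genes) and above it in 3 of 3 for 2 (4.35%, against 14%). By limma, 0 of the 31 tested genes passed an adjusted p of 0.05 (0.0116% of all tested genes, and 0.0129% of all tested probe sets). At an unadjusted p under 0.05 there were 2 lower in OS, Psma6 and Psmd11, a share of 6.45% that lies near the 5.20% of all tested genes, and 0 higher (background 1.73%). The median of -0.34 depended on how genes with several probe sets were read, since it became -0.093 with the mean over all probe sets of a gene. With values under the highest control limit raised to that limit, a setting added after the data were seen, it was 0. That limit, 591, lay above the median intensity of every array. Most values on each array were thus raised to it, which shrinks differences toward 0 by construction. The median over all genes was not computed under this setting, so its values near 0 are not a trait of the proteasome genes.

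**Figure D1:**
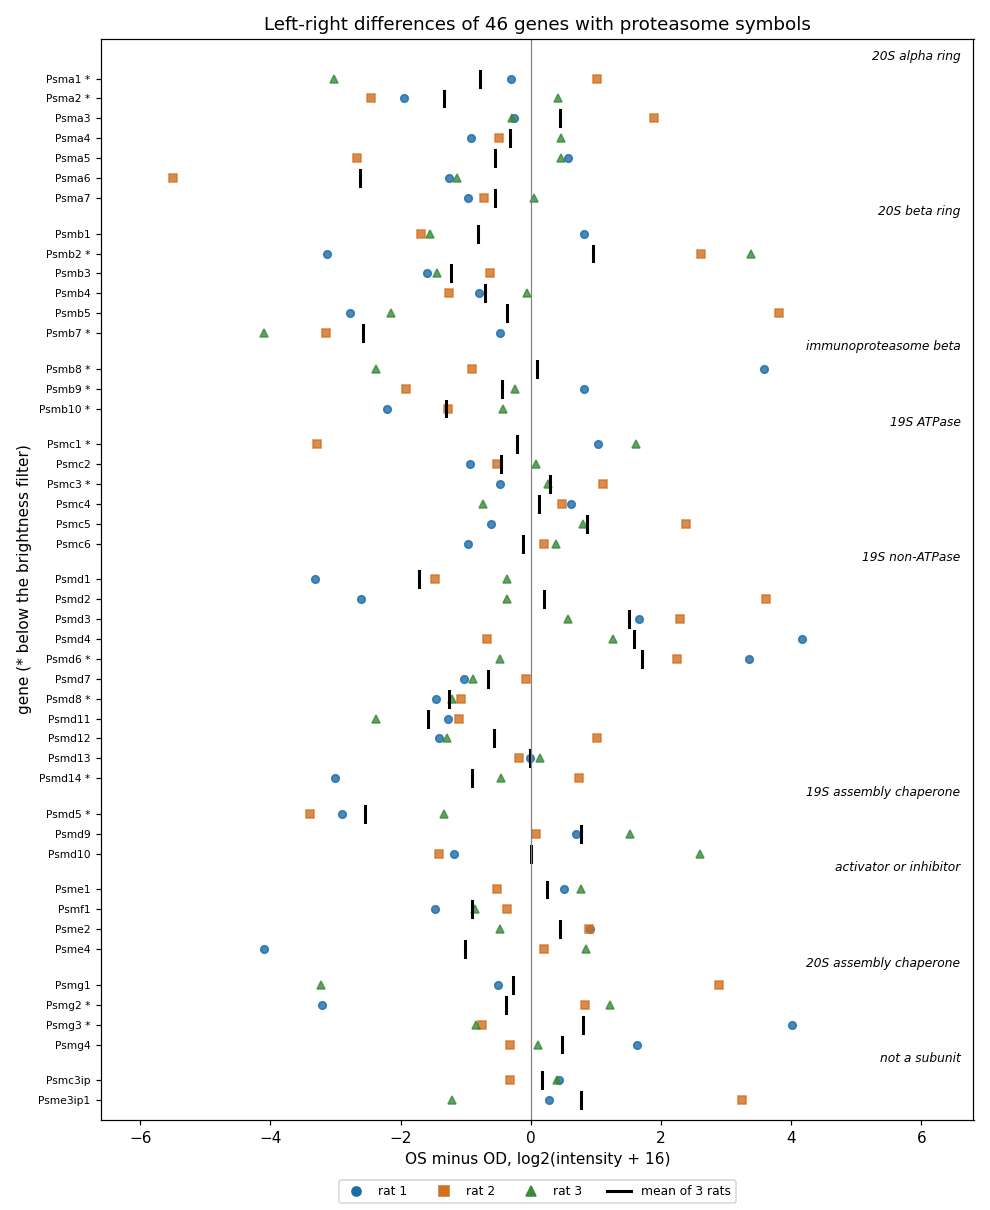
Differences between eyes for each of the 46 genes by role. Each row is a gene, the horizontal axis is OS minus OD in log2(intensity + 16), points are the 3 rats, the bar is their mean, and an asterisk marks genes below the brightness filter. Points of 1 gene often lie on both sides of 0, and 11 genes have all 3 points below 0.

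The alpha ring, which forms the gate of the core, was led by Psma6. Its intensities in rats 1 to 3 were 601, 28.5 and 2085 in OS, against 1457, 1994 and 4587 in OD. Each OS value lay below the OD value of the same rat, and the value of rat 2 in OS was far under that array's limit of 547, so that the size of the difference is uncertain. The log2 difference was -2.63 ± 2.49 (SD, n = 3 rats; limma adjusted p = 0.308). Psma6 was the only 1 of 27 named genes tested with a rat left out to pass an adjusted p of 0.05 there: without rat 1 the difference was -3.31 (limma adjusted p = 0.0269), and without rat 2 it was -1.19. Over the whole array 26 of 15521 tested probe sets passed without rat 1, against 2 with all rats. The fit without rat 1 rests on 2 rats and includes the dim OS value of rat 2. With dim values raised to the highest control limit, as described above, the difference of Psma6 was -1.37.

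Psma7, another alpha subunit gene, had 359.5, 438 and 710.3 in OS, against 719.9, 728 and 688 in OD. It was lower in OS in rats 1 and 2 and slightly higher in rat 3, with a difference of -0.55 ± 0.53 (limma adjusted p = 0.894). The other alpha genes went different ways in different rats, with mean differences of -0.77 ± 2.06 for Psma1, -1.33 ± 1.54 for Psma2, 0.45 ± 1.25 for Psma3, -0.31 ± 0.71 for Psma4 and -0.55 ± 1.84 for Psma5. Psma2 exceeded the limit on none of the arrays and Psma1 on none of the OS arrays. Of the 7 alpha genes, 6 had a lower mean in OS and 1, Psma6, was lower in 3 of 3 rats.

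The beta ring held 3 genes that were lower in OS in 3 of 3 rats, Psmb3, Psmb4 and Psmb7. Psmb4, a structural subunit gene, had 769, 395 and 1423 in OS, against 1353, 971 and 1489 in OD. All 3 OD values and 2 of the OS values exceeded the limit, and the ranges of the eyes overlapped. The log2 difference was -0.71 ± 0.60 (limma adjusted p = 0.828). Psmb3, also structural, had 191, 186 and 359 in OS, against 611, 297 and 1004 in OD. It exceeded the limit on no OS array and on 2 OD arrays. The measured difference was -1.23 ± 0.52 (limma adjusted p = 0.813), and with dim values raised to the highest control limit it was -0.27.

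Psmb5 and Psmb7 encode catalytic subunits with chymotrypsin-like and trypsin-like activity. Psmb7 had 434, 21.4 and 30.8 in OS, against 612, 313 and 783 in OD, with a difference of -2.57 ± 1.87, and was not tested because its mean lay below the brightness filter. Its OS values of rats 2 and 3 lay under the limit, while in rat 1 both eyes exceeded it. In rat 2 its OD value of 313 also lay under that array's limit of 591. With dim values raised to the highest control limit the difference of Psmb7 was -0.15. Psmb5 had 47.7, 2051 and 316 in OS, against 420.3, 131 and 1450.5 in OD, which was lower in OS in rats 1 and 3 and higher in rat 2 (mean -0.37 ± 3.63, limma adjusted p = 0.958). Its other 2 probe sets went the other way, at 0.25 ± 1.45 and 1.47 ± 0.86, and were below the filter. Psmb1 differed by -0.80 ± 1.40 and Psmb2 by 0.95 ± 3.56, each with both directions among the rats.

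The immunoproteasome genes Psmb8, Psmb9 and Psmb10 encode catalytic subunits that replace those of the standard core, mainly in immune cells and after interferon. None of them passed the brightness filter. Psmb8 had 376, 79.4 and 39.1 in OS, against 16.9, 163 and 272 in OD, all at or below the limit. Psmb9 exceeded the limit on 1 of 6 arrays, the OD array of rat 3, and differed by -0.45 ± 1.37. Psmb10 exceeded it on 2 OD arrays and on no OS array, with OS below OD in 3 of 3 rats (-1.30 ± 0.89). All 6 values of Psmb10 lay under the highest control limit, so with dim values raised to it the difference was 0 by construction. No OS array thus held a value of these 3 above its limit.

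**Figure D2:**
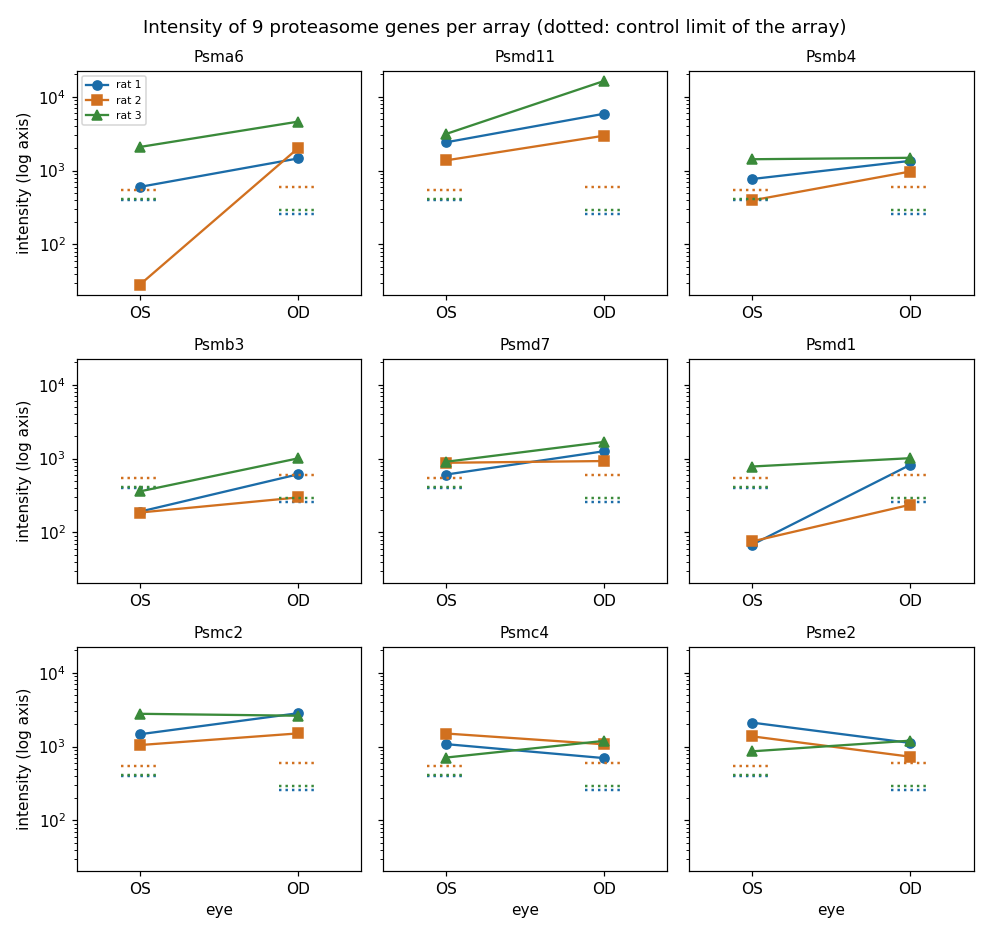
Intensities of 9 genes on each array. Every panel is a gene, with the left eye (OS) and the right eye (OD) of a rat joined by a line, intensity on a log axis, and each array's control limit dotted in the color of the rat. Psmd11, Psmd7, Psmc2, Psmc4 and Psme2 stay above the limit on all 6 arrays, while Psma6 drops under it in OS of rat 2.

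In the regulatory particle the ATPase genes had a median difference of -0.0032 between eyes. Psmc2 had 1467, 1048 and 2775 in OS, against 2822, 1505 and 2613 in OD, all above the limit, with OS lower in rats 1 and 2 and slightly higher in rat 3 (-0.46 ± 0.51, limma adjusted p = 0.866). Psmc4, also above the limit throughout, had 1078, 1501 and 709.6 in OS, against 698, 1073 and 1192 in OD, higher in OS in rats 1 and 2 and lower in rat 3 (0.12 ± 0.74, limma adjusted p = 0.976). Psmc5 had 605, 803 and 1205 in OS, against 928, 142 and 681 in OD and differed by 0.86 ± 1.49 (limma adjusted p = 0.840). It was higher in OS in rats 2 and 3 only, and its OD value of rat 2 lay under the limit. Psmc6 (-0.13 ± 0.73), Psmc1 (-0.21 ± 2.68) and Psmc3 (0.30 ± 0.78) also differed in direction between rats. The mean was lower in OS for 3 of the 6 ATPase genes, and none went the same way in 3 of 3 rats.

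Among the non-ATPase genes Psmd11 stood first. It encodes a scaffold subunit that in yeast braces the regulatory particle against the core. Its intensities were 2412, 1374 and 3128 in OS, against 5874, 2964 and 16321 in OD. The OD value of rat 3 was the highest of the 6, every value exceeded the limit, and OS was lower in 3 of 3 rats. The log2 difference was -1.59 ± 0.69, or 3.00-fold higher in OD (limma adjusted p = 0.300). A second probe set of Psmd11, also above the limit on all 6 arrays, gave -0.11 ± 1.11 with rat 2 in the opposite direction, and the third, dim, gave 0.020 ± 2.08. Of its 3 probe sets only the brightest was lower in OS in 3 of 3 rats.

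Psmd1, which encodes a large scaffold subunit that contacts ubiquitin receptors, had 68.5, 75.7 and 780.3 in OS, against 823, 237 and 1012 in OD. OS was lower in 3 of 3 rats (-1.72 ± 1.49, limma adjusted p = 0.792). Only 1 OS value, that of rat 3, and 2 OD values, those of rats 1 and 3, exceeded their limits. With dim values raised to the highest control limit the difference of Psmd1 was -0.28. Psmd7, which encodes the partner of the deubiquitinase subunit, had 607, 877 and 905 in OS, against 1257, 925 and 1679 in OD. Its 3 OS values all lay below its 3 OD values, with a difference of -0.66 ± 0.51 (limma adjusted p = 0.841), while its other probe set, below the filter, gave 1.11 ± 2.63. Groups without overlap and OS lower were seen for 2 of the 46 genes, Psmd7 and the chaperone gene Psmd5 (4.35%, against 5.30% of all genes), and OS higher for 1, Psmd9 (background 5.16%).

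Psmd4, which encodes a ubiquitin receptor, and Psmd14, which encodes the deubiquitinase that strips ubiquitin chains from substrates, showed no common direction. Psmd4 had 1046, 460.4 and 362 in OS, against 43.0, 741 and 141 in OD. OS was higher in rats 1 and 3 and lower in rat 2, and only OS of rat 1 and OD of rat 2 exceeded their limits (1.59 ± 2.43, limma adjusted p = 0.802). Psmd14 had 94.3, 97.6 and 535 in OS, against 869, 51.8 and 741 in OD and was below the filter (-0.91 ± 1.91). Its other 2 probe sets gave -0.55 ± 3.17 and 1.10 ± 2.17. Psmd3 was the only regulatory particle gene higher in OS in 3 of 3 rats, with 358, 802 and 795 in OS, against 102, 152 and 532 in OD and a difference of 1.50 ± 0.87 (limma adjusted p = 0.796). It exceeded the limit on 2 OS arrays and 1 OD array.

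The remaining non-ATPase genes spread around 0. Psmd6, which exceeded the limit only on the OD array of rat 3, differed by 1.71 ± 1.97 and Psmd2 by 0.21 ± 3.15, each with both directions. Psmd12 differed by -0.56 ± 1.37. Psmd8 was lower in OS in 3 of 3 rats with a small spread (-1.25 ± 0.20), but all 6 of its values lay at or below the limit. Psmd13 had the smallest spread of all 46 genes, at -0.012, -0.18 and 0.14 in rats 1 to 3 (-0.018 ± 0.16), with 999, 426 and 803 in OS, against 1008, 485 and 727 in OD. Of the 11 non-ATPase genes, 7 had a lower mean in OS and 4 were lower in 3 of 3 rats.

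The core and the regulatory particle were then set side by side. In the core, 11 of 13 genes had a lower mean in OS and 4 were lower in 3 of 3 rats, with a median of -0.71. In the regulatory particle these were 10 of 17 and 4, with a median of -0.13. A lower mean was thus seen for 84.6% of the core and 58.8% of the regulatory particle, against 50.7% of all genes. Of all genes 13.8% were lower in 3 of 3 rats, and their median was -0.016. The core medians were -0.92, -0.71 and -0.28 in rats 1 to 3, against -0.94, 0.20 and -0.37 for the regulatory particle. The core median thus lay -0.58 from that of the regulatory particle, but the gap was -0.91 in rat 2 and only 0.021 and 0.084 in rats 1 and 3. Without rat 2 it was -0.17, and the difference between the particles therefore rested on rat 2. With dim values raised to the highest control limit, the core median was -0.15, that of the regulatory particle 0 and the gap -0.15. No p is given for these medians, because the members were chosen as a set.

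On single arrays, each gene was also set against its own mean over the 6 arrays. The median deviation of core genes was -0.64, -0.89 and 0.36 in OS of rats 1 to 3 and 0.62, 0.066 and 0.96 in OD. For the regulatory particle it was -0.37, -0.17 and 0.39 in OS and 0.56, -0.35 and 0.55 in OD. Core genes were lowest on the OS array of rat 2, where 1 of 13 exceeded the limit, and regulatory particle genes on the OS array of rat 1, closely followed by the OD array of rat 2. Both particles were above their own mean on both arrays of rat 3 and on the OD array of rat 1. All 14217 genes had median deviations between 0.044 and 0.18.

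**Figure D3:**
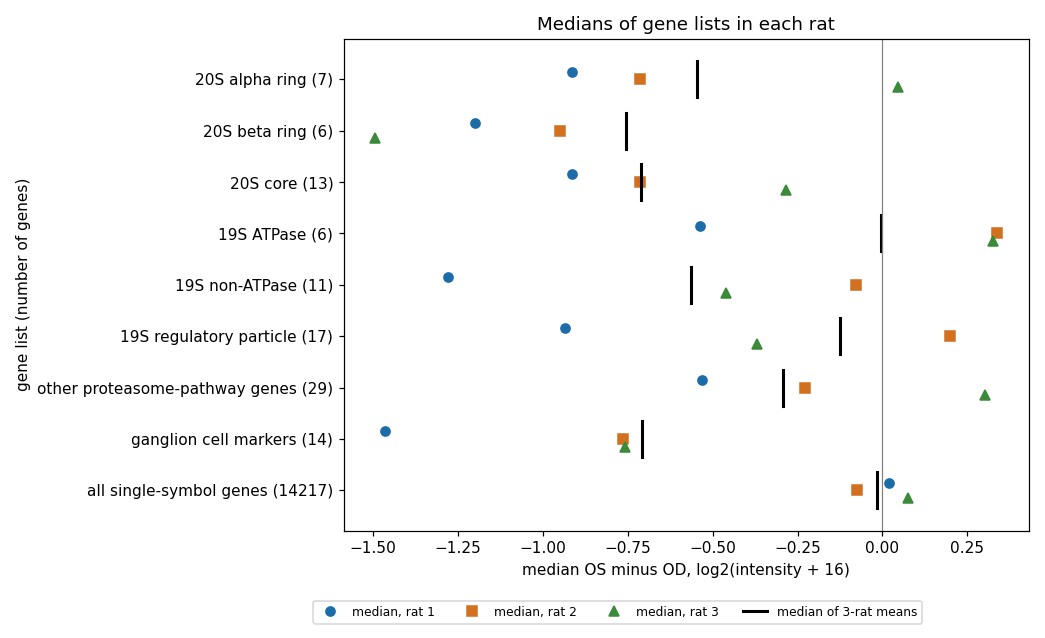
Median OS minus OD of gene lists in each rat, in log2(intensity + 16). Points are the median over the genes of a list in 1 rat, bars the median of the means over 3 rats, and the number of genes stands in brackets. Core and regulatory particle medians nearly coincide in rats 1 and 3 and part in rat 2, at -0.71 and 0.20.

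Some other measures also differed between the eyes, though not all in the same direction. The ganglion cell marker list had a lower mean in OS for 12 of 14 genes, with a median of -0.71 and medians of -1.47, -0.76 and -0.76 in rats 1 to 3. The summed intensity of these markers ran from 14297 to 20252 in OS, against 25222 to 34709.7 in OD, without overlap. Amacrine cell markers had a median of -0.73 (7 of 8 lower) and sums of 11506 to 23660.0 in OS and 26656 to 72434 in OD, and pigment epithelium markers -2.06 (6 of 6 lower, sums 1980.0 to 4324 in OS and 6162 to 36426 in OD). Photoreceptor markers had a median of 0.31 (3 of 8 lower), with sums of 8544 to 19846 in OS and 8480.4 to 32942 in OD. Mueller glia and astrocyte markers had a median of 0.11 (4 of 9 lower), with sums of 7104 to 17251 in OS and 6741 to 19513 in OD. Microglia markers had a median of 0.30 (4 of 10 lower), with sums of 3558 to 12837 in OS and 3302 to 5046 in OD. The sums of ganglion cell, amacrine cell and pigment epithelium markers were thus lower in OS without overlap. The ratio of 3' over 5' probe sets for beta-actin, which grows as RNA gets shorter, was 2.93, 0.67 and 3.36 on the log2 scale in OS, against 1.13, -0.088 and 1.94 in OD, higher in OS in 3 of 3 rats. The same ratio for Gapdh was 1.47, 1.57 and 1.83 in OS, against 1.18, 0.67 and 4.41 in OD, higher in OS in rats 1 and 2 and lower in rat 3, so the controls did not share a direction in rat 3. The part of cell makeup and RNA length in the proteasome values was not tested, and in such captured pools fewer cells of a type and less RNA per cell cannot be told apart.

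Genes that assemble or steer the proteasome showed no shared direction. The chaperones of the regulatory particle base are encoded by Psmd5, Psmd9 and Psmd10. Psmd9 was higher in OS in 3 of 3 rats without overlap, with 668, 546 and 707 in OS, against 408, 515 and 234 in OD (0.77 ± 0.73, limma adjusted p = 0.866), and its other probe set gave 0.84 ± 1.17. Psmd5 had 62.1, 25.7 and 36.8 in OS, against 566, 419.6 and 117 in OD. It was lower in OS in 3 of 3 rats (-2.54 ± 1.07), below the filter, and exceeded the limit only on the OD array of rat 1. Psmd10 was lower in OS in rats 1 and 2 and higher in rat 3, at -1.18, -1.42 and 2.59.

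Psme1 and Psme2 encode the subunits of an activator that binds the core in place of the regulatory particle. Psme2 had 2106, 1374 and 862 in OS, against 1119, 728 and 1201 in OD, all above the limit, with OS higher in rats 1 and 2 and lower in rat 3 (0.44 ± 0.79, limma adjusted p = 0.888). Psme1 was higher in OS in rats 1 and 3 and lower in rat 2, at 0.51, -0.52 and 0.77 (0.25 ± 0.68, limma adjusted p = 0.962), and its other probe set gave 1.03 ± 1.41. Psme4, which encodes a single-chain activator, differed by -4.10, 0.20 and 0.85 (mean -1.01 ± 2.69), and its other 2 probe sets gave 0.060 ± 3.77 and 1.22 ± 1.36. Psmf1, which encodes a protein that inhibits the core in vitro, had 250.3, 75.3 and 625 in OS, against 722, 101 and 1144 in OD. OS was lower in 3 of 3 rats (-0.90 ± 0.56, limma adjusted p = 0.878), with 1 OS array and 2 OD arrays above the limit.

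Psmg1 to Psmg4 encode chaperones of alpha ring assembly. Psmg4 had 908, 819.9 and 371 in OS, against 282, 1029 and 341 in OD (0.47 ± 1.02, limma adjusted p = 0.918) and Psmg1 429.9, 381 and 102 in OS, against 613, 37.5 and 1091 in OD (-0.28 ± 3.07, limma adjusted p = 0.972). Psmg2 (-0.39 ± 2.45) and Psmg3 (0.81 ± 2.77) were below the filter. None of the 4 went the same way in 3 of 3 rats. Psmc3ip, whose product acts in meiotic recombination, and Psme3ip1, neither of them counted in a role group here, differed by 0.17 ± 0.43 (limma adjusted p = 0.972) and 0.77 ± 2.27 (limma adjusted p = 0.879).

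Probe sets of the same gene often disagreed. Of the 9 genes with several probe sets, 7 had at least 1 in the opposite direction to the brightest: Psmb5, Psmc4, Psmc6, Psmd7, Psmd11, Psmd14 and Psme4. For Psmc4 the brightest gave 0.12 ± 0.74 and the other -0.10 ± 2.71, and for Psmc6 the brightest gave -0.13 ± 0.73 and the others -0.38 ± 1.17 and 0.31 ± 3.44. Psmd9 and Psme1 had both of their probe sets higher in OS on average.

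**Figure D4:**
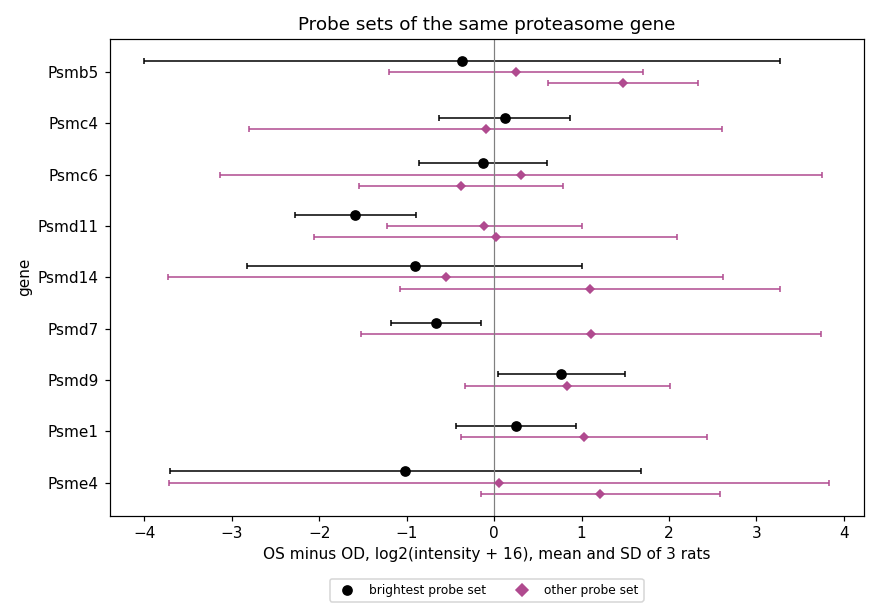
Probe sets of the 9 genes with several of them. Each point is the mean OS minus OD of a probe set in log2(intensity + 16), with bars for the SD over 3 rats, black circles for the brightest probe set and purple diamonds for the others. The bars cross 0 for most probe sets, and the brightest one of Psmd11, at -1.59, lies below its other 2.

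Genes that feed or serve the proteasome outside these symbols (ubiquitin genes, the activating enzyme, ligases, deubiquitinases, shuttle and maturation factors among them) were read from a list of 38 symbols, of which 29 had a probe set with 1 symbol and 24 were tested. The mean was lower in OS for 19 and higher for 10 (65.5% lower, against 50.7% of all genes). Their median was -0.29, with medians of -0.53, -0.23 and 0.30 in rats 1 to 3. None of them passed by limma after adjustment. At an unadjusted p under 0.05, 4 of the 24 tested were lower in OS (background 5.20% of tested genes) and 0 higher (background 1.73%). Without rat 1 the median was 0.0083. Groups without overlap and OS lower were seen for Uba1, Zfand5 and Nfe2l1 (background 5.30% of all genes). OS was higher without overlap for Akirin2, below the filter (background 5.16%). Uchl1 stands in both this list and the ganglion cell list.

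The 4 genes were Txnl1, Uba1, Pomp and Ube3c. Txnl1, which encodes a thioredoxin bound to the regulatory particle, had 655, 695 and 6316 in OS, against 4463, 2462 and 10728 in OD, lower in OS in 3 of 3 rats and above the limit throughout (-1.77 ± 0.99, limma adjusted p = 0.290). Uba1, which encodes the enzyme that activates ubiquitin at the head of the pathway, had 178, 194 and 108 in OS, against 1084, 1001 and 733 in OD. Its 3 OS values lay at or below the limit and below all 3 OD values, with a measured difference of -2.46 ± 0.17 (limma adjusted p = 0.587). With dim values raised to the highest control limit the difference was -0.64. Pomp, which encodes the maturation factor of the core, had 246, 46.6 and 1301 in OS, against 753, 842 and 1879 in OD, lower in OS in 3 of 3 rats (-1.95 ± 1.66, limma adjusted p = 0.650), with 1 OS array above the limit. Ube3c, which encodes a proteasome-bound ubiquitin ligase, had 944, 51.5 and 1275 in OS, against 942, 1637 and 1649.5 in OD, and its mean of -1.66 ± 2.57 came mostly from rat 2 (limma adjusted p = 0.717).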

How the data were processed

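RNA of laser-captured ganglion cells was isolated, amplified linearly, and 10 µg was labelled with biotin for 1-colour Affymetrix arrays, per the labels' protocols. GCOS made the linear intensity values that the authors deposited, per the submitters' processing notes, which here give neither version nor settings. They share 1 scale, since the trimmed mean (2% off at either end) was 500.1 on every array, and were not normalized again. No detection calls were used.

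Of 31099 probe sets, 57 controls were left out. The platform annotation gave 1 symbol for 20826, several for 436 and none for 9780, and only the first kind was named. All 46 gene identifiers matched RefSeq, with the same symbols. After adding 16 and taking log2, the 15521 probe sets at or above the median brightness entered limma 3.58.1 in R 4.3.3. The fit had rat as a fixed block and an intensity trend, and was two-sided with Benjamini-Hochberg over all these probe sets. The added 16 by itself shrinks fold changes of dim genes, while their measured differences near background can be too large or too small. Errors are the SD of 3 within-rat differences; limma pools variance over probe sets (2 residual and 19.4 prior degrees of freedom). Where a gene is at or below the control limit on all 3 arrays of an eye, the size of its difference is uncertain, and no fold is given. Both eyes of a rat come from 1 animal, per the labels; deviations from the eye means correlated at 0.109, 0.122 and 0.326 in rats 1 to 3. On simulated data for OS against OD over 15521 probe sets, the test found 0% of changes of 2-fold, 6% at 4-fold, 50% at 8-fold and 78% at 16-fold. All simulated probe sets had noise of the same size, so these shares do not describe bright or dim genes taken apart. Precision is limited by the 3 arrays per eye.

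The members, role groups and lists were chosen with earlier results of these data known. Named with values were members with an unadjusted p under 0.05, the 2 smallest p-values per role group, catalytic, ubiquitin-handling, activator and inhibitor genes, genes whose probe sets disagree, and in the pathway list the 4 smallest p-values. Other members are given more briefly so that each is accounted for. Alternatives covered the offset, normalization, block, filter, trend, probe set choice (for medians only) and each rat left out.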

Additional observations from a re-analysis of the deposited data

How the results depend on the processing

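All alternatives were planned except that with raised dim values. Over the whole array 2 probe sets, none of a proteasome gene, passed the adjusted threshold. None passed with offset 1, with quantile normalization, with no replicate block or rat as a random one, above the 75th percentile of brightness, or with no intensity trend. There were 9 with offset 64, likewise 9 if unfiltered, and 18 to 59 when a rat was dropped. The count of 2 proteasome genes lower in OS at an unadjusted p under 0.05 was 4 without a filter, where Psmb7 and Psmd5 were also tested. It was 2 to 5 with 1 rat left out, and 5 without rat 2, with Psmb5, Psmd2 and Psmd12 added. The share of all tested genes past this threshold was not computed for these settings, so these counts have no background. Without rat 2 the adjusted count over the whole array also rose, to 59 probe sets. Psma6 and Psmd11, read by their brightest probe sets, kept an unadjusted p under 0.05 in every alternative fit. Without the replicate block limma's adjusted p was 0.953 for both. The second bright probe set of Psmd11 gave -0.11 (limma unadjusted p = 0.810), so the place of Psmd11 in this count depended on the probe set read. The median over all proteasome genes was -0.093 with probe sets averaged and 0 with dim values raised to the highest limit, where the core median was -0.15; the block leaves medians as they are. With 1 rat left out the core median ran from -1.0 to -0.46, that of the regulatory particle from -0.29 to -0.021 and the gap between them from -0.98 to -0.17. Of 337 values of 32 named genes under alternatives, 19 changed sign. A change of block, filter or trend leaves the mean difference of a gene as it is. The values under those settings are among the 337 and could not change sign, so the share with a changed sign understates how unsteady the directions were. Psmd10, near 0, was -0.024 with an offset of 1 and -0.051 after quantile normalization. With 1 rat left out, differences ran from -2.46 to 0.83 for Psmb5, -0.13 to 0.55 for Psmc4, -0.38 to 0.29 for Psmc6, -1.95 to 0.53 for Psme4, -0.10 to 0.87 for Psmg4, -0.46 to 1.76 for Psme3ip1, -1.30 to 0.71 for Psmd10, -0.0071 to 0.64 for Psme1, -1.86 to 1.20 for Psmg1, -1.65 to 1.34 for Psmb8, -1.08 to 0.28 for Psmb9 and -1.73 to 0.14 for Psmd14. With dim values raised, Psmb5 was 0.17, Psmc6 0.091 and Psme4 0.18. The causes were not tested. Signal over background limits all differences of genes at or below the control limit.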
